A study of Mus musculus with 51 samples.

Results

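In MC3T3-E1 osteoblasts, 129459 strong 5hmC peaks of the culture without vitamin C (VitC-) overlapped no peak called in the culture with vitamin C (VitC+). Signal of the VitC+ culture that was not called as a peak was not read out here. These peaks only without VitC were chosen by 2 readouts of the same lists, a -log10 q of at least 5 in the VitC- list and no base shared with any VitC+ peak. They make up 46.5% of the 278591 VitC- peaks on chromosomes 1 to 19 and 63.2% of the 204958 that reached this -log10 q. The remaining 75499 strong VitC- peaks overlapped a VitC+ peak and are called shared, and 118399 equally strong VitC+ peaks that overlapped no VitC- peak are called VitC+-only. The number of peaks in each set follows from the rule and is a description.

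MC3T3-E1 is a pre-osteoblast line from the skull of C57BL/6 mice. The cells grew for 28 days with β-glycerophosphate and either 0 or 50 µg/ml of VitC, and 2 hMeDIP-seq samples per group (sequencing of DNA fragments pulled down by an antibody against 5hmC) were merged into 1 peak list. H3K27me3 and H3K9me3 ChIP-seq lists came from the same line, VitC- and VitC+, with 2 dishes per group. The treatment label gives day 28 for these dishes and the design text gives day 7, so their time point is uncertain. The 4 femur 5hmC lists, each from 3 mice, serve as readouts in other samples. They were made with the same hMeDIP-seq protocol and antibody as the lists of the cells, so an overlap does not check the assay itself. By sample number the hMeDIP-seq samples of the cells stand next to the Gulo femurs and apart from the Tet femurs. No label gives a batch. The lists named VitC+ and VitC+/- come from 20 week old Gulo-/- mice (Gulo tm1Mae), which cannot make VitC and drank water with 3.3 g/L of VitC for all 20 weeks (VitC+) or for the first 15 weeks (VitC+/-). The Ctrl list comes from 11 week old mice that carry Prrx1-Cre, and the Tet1/2 cKO list from 11 week old Prrx1-Cre; Tet1 fl/fl; Tet2 fl/fl mice. Prrx1-Cre acts in limb mesenchyme, so blood cells of these femurs keep both genes. All of these mice are on a C57BL/6 background. Age, genotype and experiment differ between the Gulo and the Tet femurs and cannot be told apart. RNA-seq of femurs from 20 week old WT, VitC+ and VitC+/- mice, with 3 libraries each, was used as well. A list made from merged samples holds no replicate error, so differences between lists carry no test, and the 95% Wilson intervals below cover counting error only.

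Cytosine in DNA is methylated to 5mC by DNA methyltransferases, in somatic cells almost wholly where C is followed by G (a CpG site). The TET dioxygenases oxidise 5mC to 5hmC, and VitC keeps their iron in the reduced state, as it does for the JmjC enzymes that remove methyl groups from histones. H3K27me3 is laid down by Polycomb complexes over silent developmental genes, and H3K9me3 marks heterochromatin and silenced repeats. In bone, 5hmC is known mainly from gene bodies and enhancers of active genes.

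The sequences around the summits show the CpG sites that many of the following values count. They are 6 windows of 300 bases on the plus strand of mm10, given in lower case with every CpG in capitals: the 4 peaks only without VitC with the highest -log10 q, and, chosen after their values were seen, the strongest shared and the strongest VitC+-only peak.
Mindy4 intron, only without VitC, chr6:55210860-55211159: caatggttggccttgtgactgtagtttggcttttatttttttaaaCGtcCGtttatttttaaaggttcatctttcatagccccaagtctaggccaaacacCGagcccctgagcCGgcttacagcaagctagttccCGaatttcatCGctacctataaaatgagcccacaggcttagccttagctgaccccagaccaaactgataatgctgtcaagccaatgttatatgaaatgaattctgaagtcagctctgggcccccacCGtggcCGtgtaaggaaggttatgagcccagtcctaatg
distal, nearest gene Zeb2, only without VitC, chr2:45747527-45747826: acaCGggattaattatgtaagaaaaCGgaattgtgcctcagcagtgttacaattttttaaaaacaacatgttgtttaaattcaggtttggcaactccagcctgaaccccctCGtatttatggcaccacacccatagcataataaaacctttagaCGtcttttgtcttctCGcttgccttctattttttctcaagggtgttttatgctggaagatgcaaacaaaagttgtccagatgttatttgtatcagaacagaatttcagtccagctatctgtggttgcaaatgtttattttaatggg
distal, nearest gene Clic5, only without VitC, chr17:44431488-44431787: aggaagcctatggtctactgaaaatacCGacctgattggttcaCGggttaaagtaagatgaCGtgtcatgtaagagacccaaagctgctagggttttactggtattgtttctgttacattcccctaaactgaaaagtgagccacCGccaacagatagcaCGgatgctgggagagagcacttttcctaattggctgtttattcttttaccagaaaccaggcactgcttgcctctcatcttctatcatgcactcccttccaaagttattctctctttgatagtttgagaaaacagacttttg
distal, nearest gene Lrrn1, only without VitC, chr6:107435534-107435833: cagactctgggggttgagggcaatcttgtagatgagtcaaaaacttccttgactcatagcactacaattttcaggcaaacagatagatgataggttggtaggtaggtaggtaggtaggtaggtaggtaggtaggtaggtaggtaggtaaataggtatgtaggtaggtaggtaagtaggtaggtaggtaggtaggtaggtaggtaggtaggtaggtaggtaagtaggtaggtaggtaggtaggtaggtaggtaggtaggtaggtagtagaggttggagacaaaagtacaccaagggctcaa
Supt3 intron, nearest start site Runx2, shared, chr17:45048265-45048564: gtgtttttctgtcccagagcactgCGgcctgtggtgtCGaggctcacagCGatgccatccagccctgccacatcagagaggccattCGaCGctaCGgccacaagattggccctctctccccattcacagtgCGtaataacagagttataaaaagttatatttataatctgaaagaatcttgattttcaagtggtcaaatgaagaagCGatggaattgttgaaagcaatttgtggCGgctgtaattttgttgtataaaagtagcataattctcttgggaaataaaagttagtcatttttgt
Tbc1d12 intron, VitC+-only, chr19:38844498-38844797: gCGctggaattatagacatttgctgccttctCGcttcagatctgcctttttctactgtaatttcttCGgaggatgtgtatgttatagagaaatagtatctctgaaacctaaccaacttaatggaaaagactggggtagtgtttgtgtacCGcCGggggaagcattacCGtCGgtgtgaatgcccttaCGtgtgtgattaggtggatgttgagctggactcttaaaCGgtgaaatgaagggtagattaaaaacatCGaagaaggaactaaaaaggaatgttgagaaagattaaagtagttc
The window in the Mindy4 intron held 8 CpG sites, those near Zeb2 and Clic5 held 5 each and the window upstream of Lrrn1 held 0. The shared window, in an intron of Supt3 with Runx2 as the nearest start site (233.6 kb), held 9 and the VitC+-only window in the Tbc1d12 intron held 10. Of the 10 strongest peaks, 2 of those only without VitC, 3 of the shared and 0 of the VitC+-only peaks had no CpG, so the strongest shared peaks did not differ in this way.

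The strongest of all lay on chromosome 6 from 55209990 to 55211545 in an intron of Mindy4, which encodes a deubiquitinase, with a fold enrichment of 44.4 over the local background, a pileup of 193 fragments and a -log10 q of 254.7. It was 1556 bp wide, and the nearest VitC+ peak began 238 bp away. It overlapped peaks of the Ctrl femur (fold 3.85) and the Tet1/2 cKO femur (fold 3.67) and none of the Gulo femurs. The second, on chromosome 2 from 45747259 to 45748226, was distal, with Zeb2 as the nearest start site at 630.3 kb. It had a fold of 40.1 in the cells and was in all 4 femur lists, with folds of 6.92 in VitC+, 5.29 in VitC+/-, 3.34 in Ctrl and 2.79 in Tet1/2 cKO. The third, on chromosome 17 from 44431279 to 44432825, had a fold of 42.3 and lay in 1 femur list (VitC+, fold 2.602). The fourth, on chromosome 6 from 107435392 to 107436085 and 94.1 kb from the start of Lrrn1, was of another kind. It had no CpG in its window, 64.3% of that window was soft-masked as repeat, the nearest VitC+ peak was 427.9 kb away, and its folds in the femurs were 12.2 in VitC+, 15.6 in VitC+/-, 3.92 in Ctrl and 3.26 in Tet1/2 cKO.

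Of the next 6 peaks in rank, the 1 in an intron of Pcca (chromosome 14, 122568755 to 122569580) also had no CpG. Its window was 100% soft-masked, and its folds were 15.8 in VitC+ and 22.4 in VitC+/- femurs, with no peak in Ctrl or Tet1/2 cKO. The others lay in introns of Sorcs2 and Olfm2 and outside genes, 167.4 kb from the start of Sstr4, 414.4 kb from that of Klf4 and 67.3 kb from that of Cdc42bpa, with 2 to 7 CpG sites each. Of those 5, the peak nearest to Klf4 was in both Gulo lists, with folds of 3.95 in VitC+ and 2.55 in VitC+/-, and the rest were in no femur list. The peak nearest to Cdc42bpa overlapped an H3K9me3 peak of VitC- cells (fold 3.80), and it was the only one of the 10 in a histone list. For 8 of these 10 the nearest VitC+ peak was less than 1 kb away, with gaps from 73 to 807 bp.

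At the other end of the rule, the 3 peaks just inside the limit had a -log10 q of 5.00, a fold of 3.74 and a pileup of 16, and were 265 to 384 bp wide. The 3 VitC- peaks just outside it had a -log10 q of 5.00 after rounding as well, folds of 2.61, 3.24 and 3.62 and pileups of 32, 21 and 17. None of these 6 was in a femur list.

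Peaks only without VitC were narrower and weaker than the other sets, in measures that the rule itself used or bears on. Their median width was 431 bp (middle range 340 to 570 bp, extremes 244 and 10559 bp), against 589 bp for shared and 519 bp for VitC+-only peaks. The median fold enrichment was 5.17, against 6.12 and 5.28, and the median pileup was 23 fragments, against 27 and 24. Together they covered 64.1 Mb, or 2.67% of the genome. Width rose with strength, from a median of 363 bp in the 68101 peaks with a -log10 q of 5 to 10 to 715 bp in the 1781 peaks at 50 or more.

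CpG content set these peaks apart from both other sets. In 300 bp around the summit, 27.8% (95% interval 27.6 to 28.1%) held no CpG at all, against 4.79% of shared peaks, 0.00676% of VitC+-only peaks (8 of 118399) and 18.6% of 7986009 tiles of 300 bp across the genome. A further 30.04% held a single CpG, and 6.56% held 5 or more, compared with 29.9% of shared and 47.3% of VitC+-only peaks and 15.12% of tiles. The mean was 1.65 CpG sites per window, below the 2.54 of the genome, while shared peaks (3.61) and VitC+-only peaks (4.74) were above it. GC content did not separate the sets, with medians of 44.3, 45 and 44.3%, and 41.7% in the genome. Over the whole peak instead of the window, 16.8% of the peaks only without VitC, 0.803% of the shared and 1 of the 118399 VitC+-only peaks had no CpG. How an enrichment by a 5hmC antibody arises at sequence with no CpG was not tested.

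**Figure D1:**
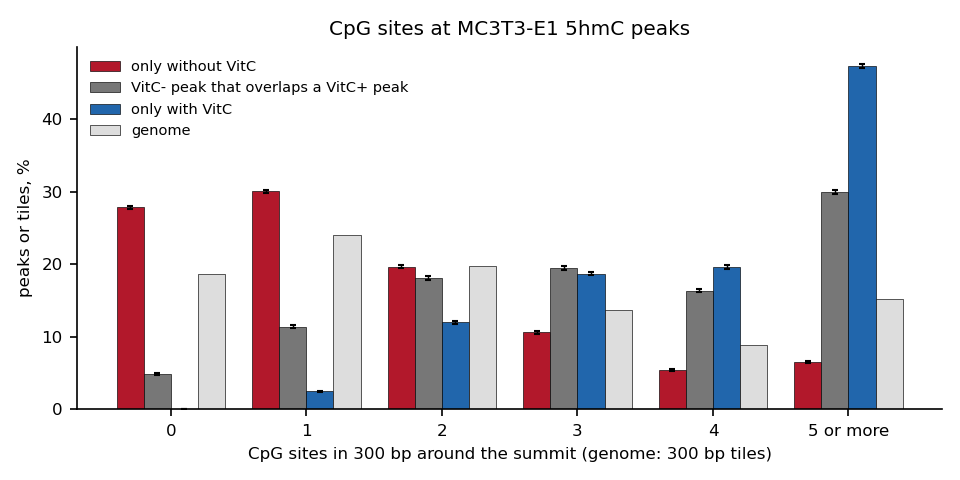
Share of peaks (%) by the number of CpG sites in 300 bp around the summit, for peaks only without VitC (red), shared peaks (grey), VitC+-only peaks (blue) and 300 bp tiles of the genome (light grey), with 95% Wilson intervals as error bars. Red bars are highest at 0 and 1 CpG (27.8 and 30.04%), and blue bars at 5 or more (47.3%).

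Repeats were more frequent as well. On average 42.9% of the window was soft-masked, against 20.8% in shared, 18.5% in VitC+-only peaks and 33.5% in the genome. Over 50% of the window was masked in 40.4% of the peaks only without VitC, 10.9% of the shared and 9.04% of the VitC+-only peaks. Windows without a CpG were masked to 50.4% on average and those with 5 or more to 34.7%. A CA repeat (CACACACACACA or TGTGTGTGTGTG) was in 6.82% of the windows, against 5.07, 2.97 and 4.52% in shared peaks, VitC+-only peaks and tiles. The 5 letters GGGGA, chosen after short words had been counted in these windows and searched on both strands, were in 71.9% of the windows, against 53.9, 44.4 and 43.4%. Since it was picked on these peaks, that excess is a description of them. The GGGGA share was highest in the 51145 peaks that were in no femur list (81.7%) and lowest in the strongest peaks (57.2% at a -log10 q of 50 or more). The CA repeat share fell with strength, from 8.36% in the weakest class to 1.35% in the strongest.

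Low CpG content was not confined to weak peaks. Windows with no CpG made up 26.3% of peaks with a -log10 q of 5 to 10, 28.1% at 10 to 20, 32.2% at 20 to 50 and 33.4% at 50 or more. In shared peaks the same share was 3.30% in the weakest and 12.9% in the strongest class.

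Most of these peaks lay far from genes. The summit was distal, meaning more than 3 kb outside every protein-coding gene, in 64.2% (83172 peaks; 95% interval 64.0 to 64.5%), against 40.6% of shared and 31.9% of VitC+-only peaks and 55.0% of genomic bases. Introns held 31.0%, compared with 52.2 and 54.6% in the other sets and 37.3% of the genome. Promoters, within 1 kb of a start site, held 1.19% (1535 peaks), compared with 2.20 and 4.79% and 2.13% of the genome. Exons held 0.637%, against 1.61, 4.60 and 2.51%. The distal share was larger in windows without a CpG (68.6%) than in those with 5 or more (53.1%), and promoter peaks had no CpG in 16.5% only.

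**Figure D2:**
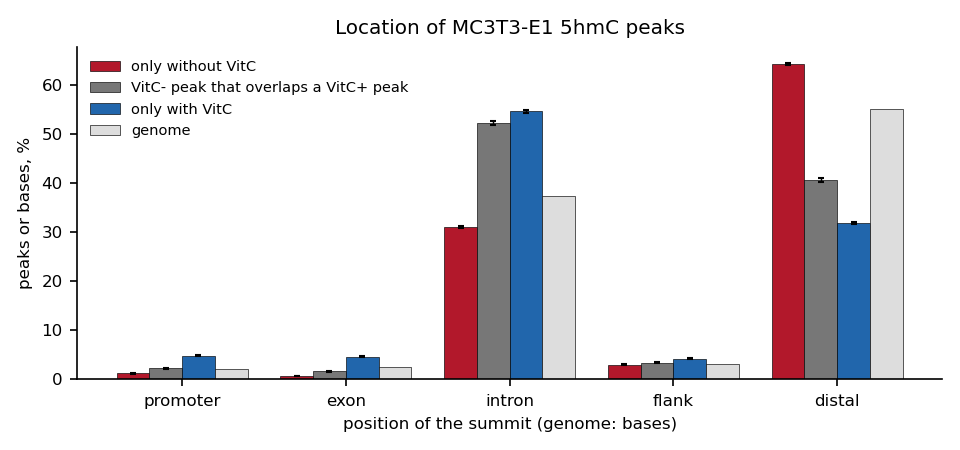
Position of the summit relative to genes (% of peaks, with 95% Wilson intervals) for the same 3 sets, and the share of genomic bases in each class. Of the peaks only without VitC, 64.2% are distal and 31.0% intronic, whereas intronic peaks are the largest class in the other sets (52.2 and 54.6%).

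The peaks were spread over the whole genome. Chromosome 19 had the highest density (75.9 per Mb) and chromosome 14 the lowest (32.6 per Mb), and bins of 1 Mb held from 1 to 136 with a median of 51. They were most numerous where 5hmC of the other sets was scarce. In the 228 bins with neither a shared nor a VitC+-only peak, the median was 66 peaks only without VitC. The 2413 bins were ordered by the sum of shared and VitC+-only peaks and divided into 4 classes. The median of peaks only without VitC per bin fell from 67 to 59, 47 and 39. They made up 98.4, 82.9, 57.7 and 34.7% of the strong VitC- peaks. The fall of this share is largely built into the ordering, because shared peaks are the rest of the strong VitC- peaks. Across bins, Spearman's rho was -0.42 with shared and -0.55 with VitC+-only peaks, while shared and VitC+-only peaks had a rho of 0.94. Bins share read depth, base composition and the 2 lists from which the sets were cut, so these values are descriptions. The median distance from a peak to the nearest VitC+ peak was 32305 bp, with a middle range of 3524 to 190698 bp. A VitC+ peak lay within 200 bp of 3.04% and within 1 kb of 12.1%, which are places where VitC+ signal was close by but called over other bases.

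Femurs gave a readout in other cells and other samples. Of the peaks only without VitC, 60.5% overlapped at least 1 of the 4 femur 5hmC lists and 39.5% none, against 14.1% of shared and 26.7% of VitC+-only peaks in none. By list, 43.5% overlapped VitC+ femur peaks and 48.3% VitC+/- femur peaks, but 17.9% Ctrl and 11.0% Tet1/2 cKO peaks. Since wide peaks overlap more easily, values by the summit base are given as well. Summits lay in the VitC+/- list in 42.6% (95% interval 42.3 to 42.9%), more often than those of shared (33.6%) and VitC+-only peaks (23.9%), and in the VitC+ list in 38.9%, against 39.5 and 31.4%. In the Ctrl list the order was turned, with 15.6% of the peaks only without VitC, 61.0% of the shared and 56.6% of the VitC+-only peaks. In Tet1/2 cKO the shares were 9.63, 43.6 and 30.1%. These lists covered 7.30% (VitC+/-), 7.32% (VitC+), 11.35% (Ctrl) and 5.11% (Tet1/2 cKO) of the genome, so the shares of the peaks only without VitC in the Tet experiment were nearest to this coverage.

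**Figure D3:**
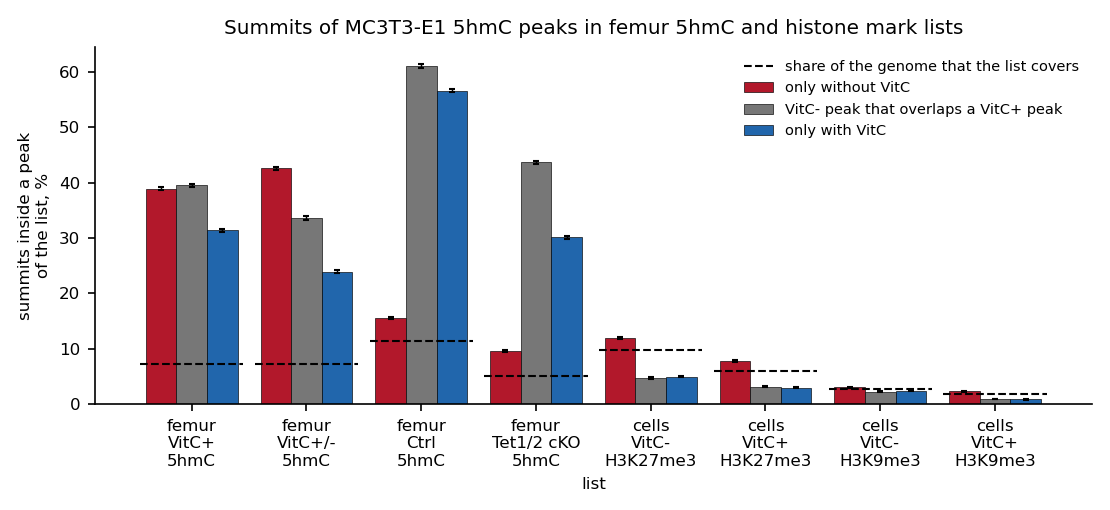
Share of summits (%) inside peaks of the 4 femur 5hmC lists and the 4 MC3T3-E1 histone lists, with 95% Wilson intervals; dashed lines give the share of the genome that each list covers. Peaks only without VitC (red) exceed the other sets in VitC+/- femur (42.6%) and in H3K27me3 of VitC- cells (11.96%), and are far below them in Ctrl femur (15.6%).

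Between the Gulo femurs, peaks only without VitC leaned to VitC+/-. They overlapped only the VitC+/- list of the pair in 8.36% and only the VitC+ list in 3.62%, while 39.9% overlapped both. Shared peaks had 2.72% and 9.59%, and VitC+-only peaks 2.74% and 10.2%. By the summit base, the shares in VitC+/- alone and VitC+ alone were 7.21 and 3.51% for the peaks only without VitC, 2.15 and 8.01% for shared and 1.957 and 9.45% for VitC+-only peaks. For the 51655 that overlapped both, the median fold enrichment was 4.67 in VitC+ and 6.01 in VitC+/- femurs, and the fold was higher in VitC+/- for 79.6% of them, with a median ratio of 1.29. In shared peaks it was higher in VitC+/- for 46.3% (median ratio 0.97), and in VitC+-only peaks for 36.2% (0.91). Between the Tet femurs, 12731 peaks overlapped both lists, with a median fold of 3.77 in Ctrl and 3.95 in Tet1/2 cKO, and 59.5% were higher in Tet1/2 cKO. Fold enrichment is relative to the background of each merged library, so a shift of this kind has no replicate error and was not tested.

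CpG content divided the peaks by the femur list they were found in. With no CpG in the window, 58.2% overlapped VitC+/-, 50.3% VitC+, 10.9% Ctrl and 7.42% Tet1/2 cKO peaks. With 5 or more, these shares were 24.1, 23.9, 40.9 and 25.8%. The femur lists themselves differed in the same property. Of their own peaks with a -log10 q of at least 5, 16.6% of VitC+/-, 9.28% of VitC+, 2.40% of Ctrl and 3.79% of Tet1/2 cKO windows held no CpG, and their median widths were 374, 395, 796 and 800 bp. Sets with little CpG thus coincided with lists with little CpG, and the part of library differences in these overlaps was not tested. Strong peaks were found in femurs more often than weak ones, with 42.7% in the VitC+/- list at a -log10 q of 5 to 10 and 71.2% at 50 or more, and 16.2 and 34.5% in the Ctrl list. The 5563 peaks in all 4 femur lists (4.30%) were wider (median 616 bp) and less often distal (47.8%).

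**Figure D4:**
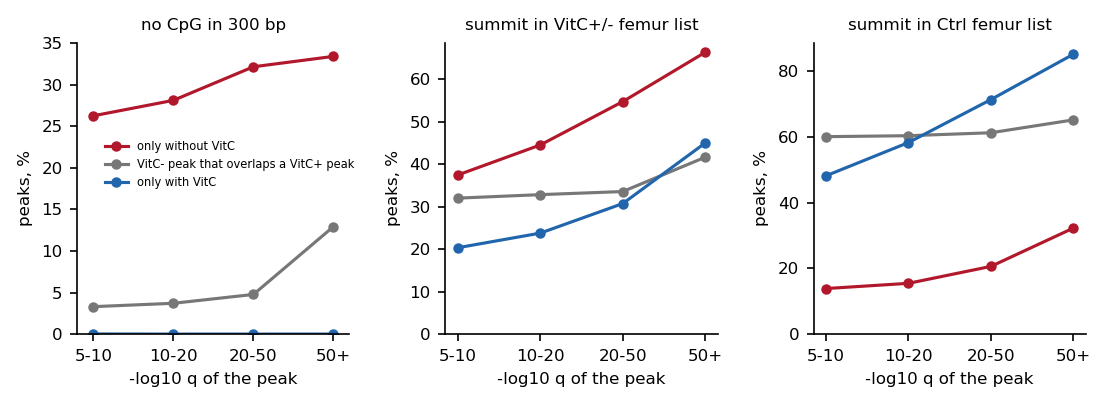
Peaks (%) with no CpG in 300 bp, with the summit in the VitC+/- femur list and with the summit in the Ctrl femur list, by classes of -log10 q, for peaks only without VitC (red), shared (grey) and VitC+-only peaks (blue). The red line is above the others in the first and second panel and below them in the third at every strength, and no-CpG windows go from 26.3 to 33.4%.

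Repressive marks covered a minority of the peaks only without VitC, but a larger share than of the other sets. H3K27me3 of VitC- cells overlapped 13.8% (17869 peaks; 95% interval 13.6 to 14.0%), against 6.07% of shared and 6.22% of VitC+-only peaks. H3K27me3 of VitC+ cells overlapped 9.70%, against 4.38 and 4.25%. By the summit, the values were 11.96, 4.77 and 4.97% in VitC- cells and 7.81, 3.15 and 3.01% in VitC+ cells. These lists covered 9.71 and 6.03% of the genome, so summits of peaks only without VitC were in them somewhat more often than a genomic base is, and those of the other sets less often. H3K27me3 was in both cultures at 8.37% of the peaks, in VitC- alone at 5.44% and in VitC+ alone at 1.34%, but the VitC- list also covers more bases.

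H3K9me3 overlapped 3.95% in VitC- and 2.96% in VitC+ cells, against 3.63 and 1.53% of shared and 3.56 and 1.37% of VitC+-only peaks. By the summit the shares were 3.09 and 2.31%, against 2.25 and 0.962% of shared and 2.43 and 0.893% of VitC+-only peaks, at a genome coverage of 2.76 and 1.80%. It was in both cultures at 2.17%, in VitC- alone at 1.79% and in VitC+ alone at 0.796%. In all, 81.5% of the peaks only without VitC were in none of the 4 histone lists. Both marks were more frequent where CpG sites were. H3K27me3 of VitC- cells rose from 9.80% of windows with no CpG to 22.6% of those with 5 or more, and H3K9me3 from 3.06 to 9.76%. Of the promoter peaks, 22.5% overlapped H3K27me3 of VitC- cells. Peaks in H3K9me3 were repetitive, with a mean of 54.9% soft-masked bases for the list of VitC- cells and 60.5% for that of VitC+ cells, and 28.2% of those in H3K9me3 of VitC- cells were in H3K27me3 of the same cells as well.

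The genes with the most of these peaks in their body are long, and many are best known from neurons. Cntnap2, a neurexin-family adhesion protein, held 176, and Lrp1b, a lipoprotein receptor relative, held 150. Others were Lsamp (143), which encodes a neuronal adhesion protein, Dlg2 (130), a postsynaptic scaffold, Pcdh15 (124), a protocadherin of hair cells, Prkg1 (123), a cGMP-dependent kinase, Rbfox1 (122), a splicing factor, and Ctnna3 (120), an alpha-catenin. The other sets had fewer peaks in these genes, from 0 shared and 0 VitC+-only peaks in Lrp1b and 5 and 3 in Cntnap2 to 17 and 27 in Dlg2 and 20 and 34 in Rbfox1. An exception was Gm20388 (117), an annotated read-through of 4434.9 kb that spans other genes and that held 333 shared and 534 VitC+-only peaks. These genes span from 1200.5 to 4434.9 kb, and per 10 kb of body the density was 0.784 in Cntnap2, 1.02 in Prkg1 and 0.264 in Gm20388, compared with 0.421 over all 20753 genes.

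Osteoblast and osteocyte genes (25, as Phex is on the X chromosome) differed from all genes mainly in shared and VitC+-only peaks. Their median of peaks only without VitC within 30 kb of the start was 2, as over all genes. The density of these peaks in the body was 0.388 per 10 kb, against 0.421. Within 30 kb there were on average 1.84 peaks only without VitC, 6.76 shared and 8.84 VitC+-only peaks, compared with 2.73, 2.09 and 4.04 over all genes. Fibroblast genes (16) had as many of the latter sets, 7.75 shared and 8.12 VitC+-only peaks, so the lists do not tell these cell types apart, and RNA of the cells was not analysed here. Col22a1, a collagen of tissue junctions, and Cpz, a carboxypeptidase that binds Wnt proteins, had the most peaks only without VitC, with 5 each. Col1a1 and Col1a2, the chains of type I collagen, Sp7 and Dlx3, transcription factors, Omd, a proteoglycan, and Phospho1, a mineralization phosphatase, had 0. Runx2, the master regulator of osteoblasts, had 3 in its body beside 83 shared and 36 VitC+-only peaks. Dmp1, which encodes an osteocyte matrix protein, had 4 within 30 kb beside 11 shared and 7 VitC+-only peaks.

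Other groups lay on either side of this. Neuronal adhesion and synapse genes (26) had on average 3.54 peaks only without VitC within 30 kb of the start and 0.115 shared and 0.577 VitC+-only peaks. Erythroid genes (9) had 4.22 and B-cell precursor genes (12) 3, whereas Wnt, BMP and TGFβ pathway genes (30) had 1.5, with 5.53 shared and 7.33 VitC+-only peaks, and Hox genes (34) 1.24, with 3.88 and 7.62. Means for fibroblast (2.69), chondrocyte (2.94), neutrophil (2.58), skeletal muscle (2.50), adipocyte (2.33) and DNA methylation and TET genes (2.36) were near that of all genes. Between 55.9% (Hox) and 100% (B-cell precursor, erythroid and muscle) of a list had at least 1 such peak, compared with 88.0% of all genes.

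At start sites, 1502 of 20753 genes had a summit of a peak only without VitC within 1 kb. The strongest was at Abca8a, an ABC transporter gene, with a -log10 q of 126.6, a fold of 26.9 and a width of 723 bp, and it was in no femur list. At Cd44, the hyaluronan receptor gene, the peak had a fold of 20.6 and was in all 4 femur lists, and so was that of Spopl, a ubiquitin ligase adaptor gene (18.3). Atn1, Setd5, Cyp2c40, Smok2a, Dglucy, Rnf5 and Gpr171 followed with folds from 10.5 to 18.1. Cyp2c40 and Smok2a had no CpG in the window, and Smok2a had the only 1 of the 10 peaks in H3K27me3, in VitC- cells.

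Messenger RNA of Gulo femurs was read out for these genes, as VitC+/- against VitC+ with 3 libraries each. Expression of Gulo, the inactivated gene, was 0.522, 0.486 and 0 RPKM for the WT label, 0.180, 0.0352 and 0.0294 RPKM for the VitC+ label and 0.0126, 0.0141 and 0.0186 RPKM for the VitC+/- label. The value of 0 in the library labelled WT replicate 3 is unlike the other WT libraries. Of the 6 knockout libraries, the one labelled VitC+ replicate 1 had the highest value. All of these values are below 1 RPKM, so they cannot settle whether a label is right. WT replicate 1 had 16.9% of the read depth of VitC+ replicate 3, and the rest had 69.4 to 105.7%. Nothing in the labels ties the mice of the RNA to the peak lists.

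Of 12586 genes tested with limma, 946 were lower in VitC+/- (7.52%) and 746 higher (5.93%) at an adjusted p under 0.05. Genes with a peak only without VitC at the start site were in the table in 1285 cases and passed the filter on low values in 585, of which 54 were lower (9.23%) and 27 higher (4.62%), near the shares over all genes. Their median log2 fold change was -0.08, and that of all genes tested was 0.02. Where no shared or VitC+-only peak was at the start as well, 34 of 382 were lower and 17 higher. With RPKM as deposited, without scaling between libraries, 24 of these genes were lower and 21 higher, beside 403 lower and 473 higher over all genes. Without VitC+ replicate 1, 37 of these genes were called and 692 of all, and without WT replicate 3 there were 56 and 1108. Without VitC+/- replicate 1, VitC+ replicate 2 or VitC+ replicate 3, the calls were 28, 29 and 32 in these genes, and 487, 490 and 573 in all.

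When separate group ranges and at least 10 RPKM in the higher group were required of the called genes, 25 lower and 19 higher ones were left. This is 4.27 and 3.25% of the 585 tested, near the 3.59 and 3.28% of all genes tested that met the same requirements. The 5 largest changes in each direction follow as scaled RPKM. Smpd3, a sphingomyelinase needed for mineralization, was at 21.9, 20.5 and 37.8 in VitC+ and at 2.13, 0.619 and 6.88 in VitC+/-. All 3 VitC+/- values were below the VitC+ values, and the log2 fold change was -3.23 ± 0.67 (SE, n = 3; limma adjusted p = 0.017). Its peak, 429 bp wide with 5 CpG sites, lay 847 bp from the start and was in all 4 femur lists. Dcn, the proteoglycan decorin, was at 195.7, 154.0 and 281.3 in VitC+ and at 24.2, 36.8 and 35.1 in VitC+/- (log2 fold change -2.67 ± 0.47, limma adjusted p = 0.010), and its peak was in no femur list. The WT libraries of both genes were below all VitC+ libraries, with Smpd3 at 14.3, 3.34 and 8.23 and Dcn at 135.7, 29.3 and 74.8. Treml1, a platelet receptor, had log2 fold changes of -2.44 ± 0.32 (limma adjusted p = 0.0032), Lst1, a leukocyte transcript, of -1.86 ± 0.18 (0.00080) and Cdh15, the cadherin of muscle cells, of -1.82 ± 0.33 (0.011).

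Fkbp5, a chaperone partner induced by glucocorticoids, was at 11.6, 15.5 and 10.8 in VitC+ and at 46.0, 75.6 and 36.8 in VitC+/-. Every VitC+/- library was above every VitC+ and WT library, with a log2 fold change of 1.98 ± 0.28 (limma adjusted p = 0.0043). The peak of Fkbp5 lay 137 bp from a start site, had 6 CpG sites and was in H3K27me3 of VitC- cells. It began at 28511296 on chromosome 17, outside the RNA entry of the gene (28399095 to 28486112). Start sites were those of any annotated protein-coding transcript, which need not be the transcript measured as RNA. Ctsk, the collagen-cleaving protease of osteoclasts, was at 913.4, 971.8 and 1015 in VitC+ and at 2710, 1438 and 3383 in VitC+/- (1.29 ± 0.28, limma adjusted p = 0.021). The WT libraries of Ctsk, at 365.0, 309.8 and 318.8, were below all VitC+ libraries. Its peak was 10 bp from the start, had 7 CpG sites and a fold of 7.06, and was in no femur list. Tmcc2 rose by 1.59 ± 0.31 on the log2 scale (limma adjusted p = 0.013), Atp13a2, a lysosomal polyamine transporter, by 1.29 ± 0.17 (0.0030) and Ppp1r15a, a stress-induced phosphatase subunit, by 1.201 ± 0.23 (0.012). Ctsk lost its call in 5 of 15 alternatives, Smpd3 in 3 and Tmcc2 and Ppp1r15a in 1 each, with the highest adjusted p at 0.082. Of the 10 strongest start-site genes, 7 were tested, and 1 of these, the ubiquitin ligase gene Rnf5, was called, beside 7.52% lower over all genes (log2 fold change -0.91 ± 0.14, limma adjusted p = 0.0059), with 27.2, 29.2 and 25.5 in VitC+ and 13.8, 16.2 and 12.9 in VitC+/-.

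**Figure D5:**
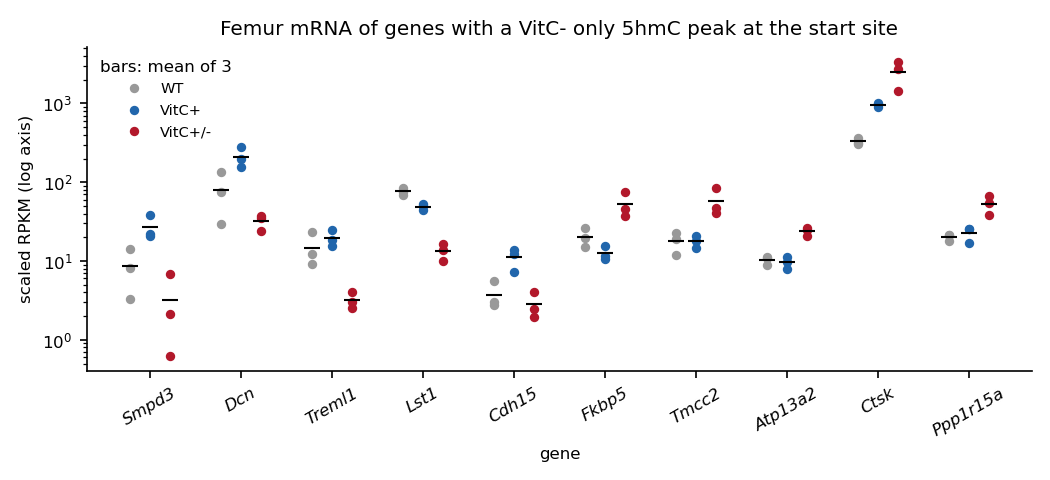
Scaled RPKM (log axis) of the 10 named genes in 3 WT (grey), 3 VitC+ (blue) and 3 VitC+/- (red) femur libraries, with the mean as a bar. VitC+/- points lie below VitC+ points in the first 5 genes and above them in the last 5, with Smpd3 from 0.619 to 6.88 and Ctsk from 1438 to 3383 in VitC+/-.

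Some lists of cell type markers moved in the same comparison, in which 7.52% of all genes tested were lower and 5.93% higher. The fibroblast, adipocyte, Wnt, BMP and TGFβ, and DNA methylation and TET lists below were near these shares. In bulk bone, fewer cells of a type and less RNA per cell cannot be told apart. B-cell precursor genes were lower in 10 of 11 tested, with summed levels of 91.3 to 172.1 scaled RPKM in VitC+ and 16.3 to 30.03 in VitC+/-, and 3 of 12 neutrophil genes were lower and 1 higher (30220 to 47789 and 8309 to 25016). Osteoblast and osteocyte genes were lower in 13 of 26 and higher in 2, with sums of 9474 to 16454 and 3435 to 10839. The WT sums of these genes, 1931 to 6475, were below every VitC+ library and overlapped VitC+/-. WT sums of chondrocyte genes, 57.8 to 160.5, were below every VitC+ library as well. Those of B-cell precursor genes, 57.25 to 189.7, overlapped VitC+, and those of neutrophil genes, 53555 to 75708, were above it. Of the chondrocyte genes, 3 of 10 tested were lower (249.4 to 771.7 and 49.9 to 75.1), of the fibroblast genes 1 of 15 was lower, which is Dcn itself (1162 to 1464 and 864.7 to 3171), of the erythroid genes 1 of 6 was higher (201.2 to 274.2 and 319.3 to 422.9), of the adipocyte genes 1 of 16 was higher (244.7 to 472.7 and 441.9 to 3427), and of the skeletal muscle genes 0 of 11 was called (41.9 to 1805 and 10.6 to 632.8). The adipocyte sum of 3427 came from VitC+/- replicate 2 alone, while replicates 1 and 3 were at 476.3 and 441.9. Of the genes of these lists that were in the table, none was at 0 in all 9 libraries. From the erythroid list, 5 of the 11 genes were not in the table. Of the Wnt, BMP and TGFβ genes, 2 of 26 were lower and 2 higher, of the DNA methylation and TET genes 1 of 13 (Tet2) was higher, of the neuronal genes 1 of 3 was lower, and of the Hox genes 2 of 16 were lower, with Hoxd1, Hoxd12 and Hoxd13 at 0 in all 9 libraries. The part of other cell types in the values of Smpd3, Lst1, Treml1, Cdh15 or Ctsk was not tested.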

How the data were processed

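Reads of hMeDIP-seq and ChIP-seq were mapped to mm10 with BWA (0.7.15.1, from the submitters' processing notes) and peaks were called with MACS2 at a stated FDR of 0.05, with merged samples as 1 list per group for 5hmC and broad settings for histone marks. The -log10 q and the fold enrichment (a ratio over the local background) of each peak are as deposited by the authors, and the deposited pileup signal at the summit exists for MC3T3-E1 5hmC only. Histone lists also hold peaks down to a -log10 q of 1.01. Femur RNA is in RPKM, deposited by the authors after alignment with STAR (2.6.0b-1), and the study's methods name cufflinks for FPKM without saying whether the deposited RPKM came from it.

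Peaks on chromosomes 1 to 19 were compared by overlap of at least 1 bp or by the summit base, with -log10 q of at least 5 for the 3 sets. Base composition and masking were read in 300 bp centred on the summit from the RefSeq sequence of the mm10 assembly. Lower-case bases of that sequence were taken as soft-masked. Positions came from protein-coding genes of the GENCODE annotation. The interval functions were checked against a direct count, and the limma step was tested on simulated data. RPKM was divided by median-of-ratios factors, and genes reaching 1 RPKM in 3 or more libraries (12586) were tested two-sided on log2(value + 0.5) by limma (3.58.1, eBayes with trend) over 9 libraries. P-values were adjusted by the method of Benjamini and Hochberg and called under 0.05. Fold changes are on this scale. The test was run on normalised values because counts were not used here. P-values and SEs rest on the spread within groups of 3 mice, pooled over all 9 libraries, WT included, and moderated by eBayes. Normalized counts of Tet femurs, WT against Gulo comparisons and input DNA were not used here.

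The members, gene lists and tests were chosen with earlier results of these data known. Named are the 10 peaks with the highest -log10 q and 3 on either side of the limit, the genes with the most peaks in their body (of 10, 1 is not reported here), the 10 strongest start-site peaks, the osteoblast genes with the most and with 0 peaks, and the 5 largest falls and rises in RNA as defined in the text. Runx2, Dmp1, Supt3, Tbc1d12 and the GGGGA motif were added after their values were seen. Alternatives changed the limit on -log10 q, the overlap, the window, the lists, the scaling, the filter, the pseudocount and the libraries. Computations used Python 3.11.15, pandas 2.3.3, scipy 1.17.1 and R 4.3.3.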

Additional observations from a re-analysis of the deposited data

How the results depend on the processing

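With a -log10 q of at least 10, the peaks only without VitC numbered 61358 and had a median width of 511 bp, with 50.5% in VitC+ femur, 54.4% in VitC+/- femur, 19.7% in Ctrl and 13.3% in Tet1/2 cKO femur peaks, 13.4% in H3K27me3 of VitC- cells, 4.21 and 3.31% in H3K9me3 of VitC- and VitC+ cells, 65.2% distal and 29.5% without a CpG. When a peak counted as shared only if 50% of its length was covered by VitC+ peaks, there were 144742, with a width of 447 bp, 44.4% in VitC+, 22.7% in Ctrl and 14.6% in Tet1/2 cKO femur peaks, 13.4 and 9.44% in H3K27me3 of VitC- and VitC+ cells, 62.3% distal and 26.1% without a CpG. Without those that had a VitC+ peak within 1 kb, there were 113840, with 44.3, 49.7, 15.09 and 9.31% in VitC+, VitC+/-, Ctrl and Tet1/2 cKO femur peaks, 14.1% in H3K27me3 and 3.80% in H3K9me3 of VitC- cells, 66.5% distal and 29.1% without a CpG. By the summit base, the femur shares in this order were 38.9, 42.6, 15.6 and 9.63%, and those of the histone lists 11.96 and 7.81% (H3K27me3) and 3.09 and 2.31% (H3K9me3). With femur peaks of a -log10 q of at least 5 they were 38.3, 44.99, 14.4 and 5.61%, so that the Tet1/2 cKO share moved most. Histone peaks with a -log10 q of at least 1.3 gave 13.4, 8.89 and 3.44% for H3K27me3 of VitC- and VitC+ cells and H3K9me3 of VitC- cells. Over whole peaks, 16.8% had no CpG. In RNA, RPKM as deposited gave 876 calls over all genes and 45 among genes with such a peak at the start. With it the balance over all genes turned, from 946 lower and 746 higher to 403 lower and 473 higher. Leaving out each library in turn gave 487 to 2296 and 28 to 112 calls. Replicate numbers did not pair the samples (correlations -0.07, 0.06 and 0.37 between VitC+ and VitC+/-, and 1 of 3 VitC+ libraries correlated best with its own number), and with the replicate block there were 2169 and 112 calls. With only the 6 Gulo libraries there were 2088 and 102. No fold change of a named gene changed sign under the alternatives run, and where values moved, the cause was not tested. The precision of the shares is limited by the single merged list per group and not by the number of peaks.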
